A study of Homo sapiens with 12 samples.

Results

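Expression of 6 genes at the receptor and adaptor level of insulin signaling was followed in 12Z cells treated with insulin, with or without overexpression (OE) of Viperin. The 6 genes were the receptors INSR, IGF1R and IGF2R, the adaptors IRS1 and IRS2, and the adaptor GRB10. They were taken by name, and all 6 were found among the 60617 genes in the files and among the 23041 genes with enough counts to test. Each gene was followed by mRNA-seq in 12 libraries, with 3 independent experiments in each of 4 groups.

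12Z is an immortalized human endometriotic epithelial cell line. Control cells received the pCAG empty vector and vehicle, Insulin cells the same vector and 100 nM insulin, Viperin OE cells the pCAG Viperin plasmid and vehicle, and Viperin OE + Insulin cells that plasmid and insulin. The group labels give the empty vector as pCAG, as does the study's figure legend on Viperin OE. The study's methods name both a pCAG and a pBabe empty vector, and the protocol text in the labels calls it pBabe. In all 4 groups the cells were transiently transfected, starved of serum for 4 h and harvested 24 h after insulin or vehicle, so the vehicle groups were serum-free as well. The CAG promoter of pCAG is active in most cell types. All groups are 1 cell line, and a transient transfection leaves a mixture of cells with and without plasmid. The comparisons asked whether insulin changed the expression of its own receptors and adaptors, and whether Viperin OE altered those levels or their response.

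Insulin and the insulin-like growth factors bind receptor tyrosine kinases at the cell surface, INSR and IGF1R, which also form hybrid receptors with each other. The activated receptors phosphorylate the docking proteins IRS1 and IRS2, which recruit PI3K and so activate AKT, and AKT keeps the FOXO transcription factors out of the nucleus. IGF2R, also known as the cation-independent mannose 6-phosphate receptor, has no kinase domain, clears IGF2 and sorts lysosomal enzymes. GRB10 binds the activated receptors and acts as an inhibitor of their signaling. In many tissues INSR and IRS2 are known FOXO targets, whose expression falls when insulin acts.

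The libraries held between 25979022 and 46889002 read pairs assigned to genes. The RSAD2 gene, which encodes Viperin, had 69 to 183 counts in the libraries with empty vector and 10862 to 28665 in those with the Viperin plasmid. Reads that mapped to more than 1 place made up 13.9% of Control library 1 and 12.1% of Viperin OE library 3, against 9.44% to 10.99% in the others, so these results are also given without both. The share of counts from mitochondrial genes was 6.003 ± 0.561% in Control, 5.16 ± 0.02% in Insulin, 5.16 ± 0.30% in Viperin OE and 4.41 ± 0.13% in Viperin OE + Insulin cells (SD, n = 3), and so moved with both treatments. Of 11 epithelial markers, 9 had a mean CPM (the count scaled to the library total) of at least 1, with KRT8 at 1290 CPM, but the defining markers EPCAM, at 0.434 CPM, and CDH1, at 1.20 CPM, were near 0. All 9 stromal markers passed that level, with COL1A1 at 1413 CPM, and the summed stromal level was higher in each Viperin OE library than in any with empty vector. None of 5 immune markers and 2 of 3 endothelial markers passed it, and these lists summed to 0.778 to 1.98 and 5.22 to 7.43 CPM. Leaving the mitochondrial genes and RSAD2 out of the fit changed no call on the 6 genes at an adjusted p under 0.05. At the study's threshold of 0.001, that fit lost IGF2R between Viperin OE + Insulin and Insulin cells (edgeR adjusted p = 0.00108).

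The promoters of the 5 genes that each have 1 start site in the RefSeq table are shown here because 3 of these genes fell with insulin while the other 2 did not pass the test. Each sequence is the 250 bases before the RefSeq start site (GRCh38.p14), written 5′ to 3′ on the strand of the gene. Capitals mark matches, on either strand, to the GC box GGGCGG, the FOXO motif TGTTTAC, the insulin response sequences TGTTTTG and TATTTTG, and the E-box CACGTG. GC boxes may overlap each other.
INSR, chr19:7294415-7294664, minus strand: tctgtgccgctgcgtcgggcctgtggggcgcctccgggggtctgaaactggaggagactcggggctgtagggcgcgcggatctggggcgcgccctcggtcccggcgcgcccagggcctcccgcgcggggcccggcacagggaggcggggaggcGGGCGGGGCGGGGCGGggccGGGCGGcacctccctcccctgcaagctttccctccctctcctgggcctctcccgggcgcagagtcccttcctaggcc
IGF1R, chr15:98648289-98648538, plus strand: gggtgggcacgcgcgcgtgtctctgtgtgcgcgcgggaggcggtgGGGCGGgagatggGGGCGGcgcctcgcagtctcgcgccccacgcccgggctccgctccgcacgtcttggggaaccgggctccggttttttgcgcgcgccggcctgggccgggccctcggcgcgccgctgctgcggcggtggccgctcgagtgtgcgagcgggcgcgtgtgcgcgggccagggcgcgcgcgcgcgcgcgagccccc
IRS2, chr13:109786584-109786833, minus strand: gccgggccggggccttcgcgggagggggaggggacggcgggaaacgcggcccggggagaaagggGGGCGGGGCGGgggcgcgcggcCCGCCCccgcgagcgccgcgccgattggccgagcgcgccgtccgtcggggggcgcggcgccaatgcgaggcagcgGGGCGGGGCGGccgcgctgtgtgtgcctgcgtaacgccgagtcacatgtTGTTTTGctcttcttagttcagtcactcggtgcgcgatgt
IRS1, chr2:226799821-226800070, minus strand: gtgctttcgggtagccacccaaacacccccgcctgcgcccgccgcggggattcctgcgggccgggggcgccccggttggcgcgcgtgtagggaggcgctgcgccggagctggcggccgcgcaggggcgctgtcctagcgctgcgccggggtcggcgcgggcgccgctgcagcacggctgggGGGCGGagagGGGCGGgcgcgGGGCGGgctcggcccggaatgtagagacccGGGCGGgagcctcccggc
IGF2R, chr6:159968832-159969081, plus strand: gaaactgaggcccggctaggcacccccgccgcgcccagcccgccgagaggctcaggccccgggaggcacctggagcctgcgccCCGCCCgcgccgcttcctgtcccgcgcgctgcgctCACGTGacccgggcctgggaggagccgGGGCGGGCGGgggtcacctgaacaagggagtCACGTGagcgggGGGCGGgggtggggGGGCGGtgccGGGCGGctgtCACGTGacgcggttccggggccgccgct
These promoters were between 76.4% and 81.2% G and C, against a median of 58.0% over 35116 RefSeq promoters cut to the same length. Each held GC boxes, 4 in INSR, 2 in IGF1R, 5 in IRS2, 4 in IRS1 and 6 in IGF2R, and 42.6% of all promoters held at least 1. The FOXO motif was in none of the 5 and in 2.98% of all promoters. IRS2 was the only one of the 5 with an insulin response sequence, a TGTTTTG that starts 40 bases before the start site, and 4.30% of all promoters held those letters. IGF2R was the only one with CACGTG, at 132, 74 and 28 bases before its start, and 6.34% of promoters held it. TATTTTG was in 3.94% of all promoters and, among the 6 genes, at 1 of the 5 start sites of GRB10. A match of letters is a description and does not show binding.

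The 6 genes were transcribed at different levels, compared here as CPM per kilobase of merged exons. IGF2R (ENSG00000197081.14, chr6:159969082-160113507 in GRCh38, plus strand, 48 exons in its canonical transcript) was highest, at 17.9 ± 1.29 CPM per kilobase over the 12 libraries (SD). IGF1R (ENSG00000140443.15, chr15:98648539-98964530, plus strand, 21 exons) followed at 7.04 ± 0.89. The adaptors came next, with IRS2 (ENSG00000185950.9, chr13:109752695-109786583, minus strand, 2 exons) at 5.39 ± 0.55, GRB10 (ENSG00000106070.19, chr7:50590063-50793462, minus strand, 19 exons) at 5.02 ± 0.22 and IRS1 (ENSG00000169047.5, chr2:226731312-226799820, minus strand, 2 exons) at 3.58 ± 0.25. The insulin receptor gene INSR (ENSG00000171105.14, chr19:7112255-7294414, minus strand, 22 exons) was lowest, at 2.18 ± 0.39 CPM per kilobase, so that IGF1R transcripts were more abundant than INSR transcripts in every library.

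Neighbours in this order did not all separate. The ranges of IGF1R and IRS2 overlapped between libraries, although IGF1R was above IRS2 within each of the 12. IRS2 and GRB10 could not be ordered, since IRS2 was above GRB10 in 7 of 12 libraries, all 6 with vehicle and 1 of 6 with insulin. The other neighbours had ranges that did not overlap. The order of GRB10 depends on the length used. Per kilobase of the canonical transcript the mean over the 12 libraries was 8.99 CPM for GRB10 and 8.02 CPM for IGF1R. By these means GRB10 was second after IGF2R, but not in every library. The plot of levels per length shows the positions per kilobase of merged exons for each library.

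**Figure D1:**
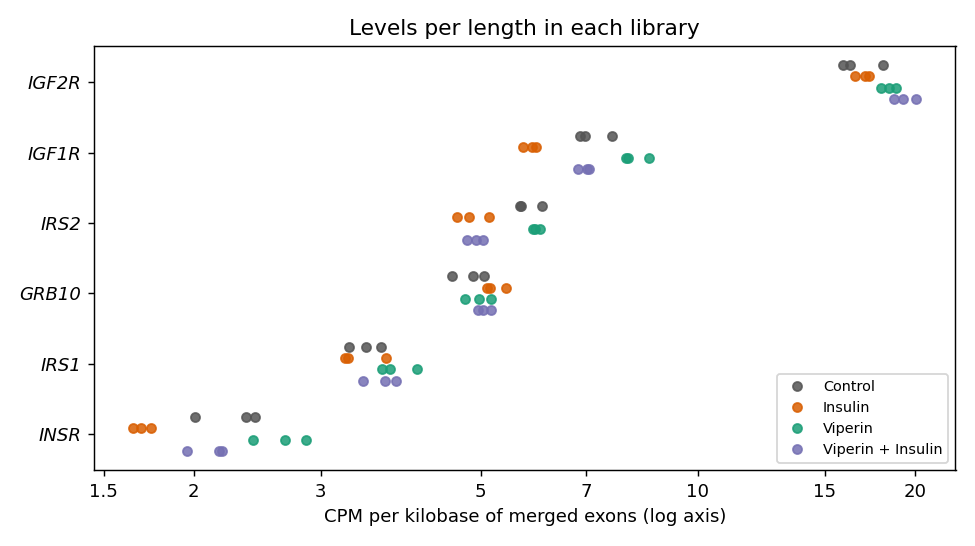
Level of each of the 6 genes in each of 12 libraries, in CPM per kilobase of merged exons on a log axis, coloured by group. IGF2R lies between 15.9 and 20.1 and INSR between 1.65 and 2.86 CPM per kilobase, while IRS2 and GRB10 overlap.

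The counts behind these levels were 646 to 1054 per library for INSR, 898 to 1740 for IRS1, 1199 to 1982 for IRS2, 1282 to 2383 for GRB10, 2746 to 4798 for IGF1R and 10566 to 21408 for IGF2R. Only reads on the strand of the gene were counted, and at most 26 read pairs per library lay on the opposite strand of any of the 6, so an antisense RNA that overlaps the exons of IRS2 contributed few. IGF2R shares exonic bases on its own strand with the pseudogene CHP1P2, and reads in the shared stretch are not assigned to either. Counts per gene do not separate isoforms, so the forms of INSR with and without its alternative exon are not told apart.

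Insulin lowered the transcripts of both receptor tyrosine kinases and of 1 of the 2 IRS adaptors. In cells with empty vector, INSR fell by 25.0%, IGF1R fell by 18.0% and IRS2 fell by 16.4%, and IGF2R, IRS1 and GRB10 did not pass the test. This is 3 of 6 genes lower and 0 higher at an adjusted p under 0.05 in edgeR's quasi-likelihood test with Benjamini-Hochberg adjustment, where 2.96% of the 23041 genes tested were lower, 2.53% higher and 5.49% were called in either direction. All 3 also passed the threshold of 0.001 used in the study, which 1.18% of genes passed. Of 24 alternative runs, 0.001 was passed in 23 for INSR, 24 for IGF1R and 19 for IRS2. The epithelial markers summed to 2592 to 2662 CPM in Control and 2690 to 2864 CPM in Insulin cells, and to 2454 to 2546 and 2587 to 2699 CPM with Viperin OE, so they moved with insulin, as the mitochondrial share did, and their part in these results was not tested. In bulk RNA, fewer cells that express a gene and less of its RNA per cell cannot be told apart.

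INSR, the insulin receptor, was at 26.4, 25.6 and 21.7 CPM in the Control libraries and at 18.9, 17.9 and 18.3 CPM in the Insulin libraries. All 3 Insulin libraries were below all 3 Control libraries, of which the third was the lowest. The mean went from 24.6 ± 2.47 to 18.4 ± 0.53 CPM (SD, n = 3), a log2 fold change of -0.41 ± 0.07 (SE, edgeR adjusted p = 2.2e-05).

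IGF1R, the receptor that prefers IGF1 but also binds insulin at high concentrations, was at 106, 97.4 and 95.7 CPM in Control and at 82.0, 79.8 and 83.3 CPM in Insulin cells. The groups again did not overlap, and the Insulin libraries lay close together. IGF1R had a log2 fold change of -0.29 ± 0.04 (SE, edgeR adjusted p = 1.1e-06). By p, IGF1R ranked 50 and INSR 105 among all genes tested.

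IGF2R was at 408, 367 and 359 CPM in Control and at 374, 391 and 386 CPM in Insulin cells. Control library 1 was the highest of the 6 and the other Control libraries were the lowest, so the groups overlapped through that library. Its log2 fold change was 0.02 (95% interval -0.06 to 0.10, edgeR adjusted p = 0.872), an interval that does not hold a fall of the size seen for INSR or IGF1R. Without Control library 1 and Viperin OE library 3 it was 0.08 (edgeR adjusted p = 0.168).

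Of the adaptors, IRS2 was at 46.3, 46.2 and 49.6 CPM in Control and at 41.9, 37.8 and 39.3 CPM in Insulin cells. Each Insulin library was below each Control library. Its log2 fold change was -0.26 ± 0.05 (SE, edgeR adjusted p = 2.7e-04). IRS1 did not share this pattern, with 34.7, 32.9 and 36.5 CPM in Control against 32.8, 37.0 and 32.5 CPM in Insulin cells. Here the highest and the lowest library were both Insulin libraries. The log2 fold change of IRS1 was -0.03 (95% interval -0.14 to 0.09, edgeR adjusted p = 0.891).

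GRB10, the inhibitory adaptor, was at 49.5, 47.7 and 44.7 CPM in Control and at 50.4, 53.0 and 50.02 CPM in Insulin cells. The groups did not overlap, but the gap between Control library 1 and the lowest Insulin library was small. The log2 fold change of 0.12 (95% interval 0.02 to 0.21) had an unadjusted p of 0.0211 and did not pass over all genes (edgeR adjusted p = 0.178). With GRB10, 4 of the 6 genes had Insulin and Control libraries that did not overlap, as did 20.2% of all genes tested.

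**Figure D2:**
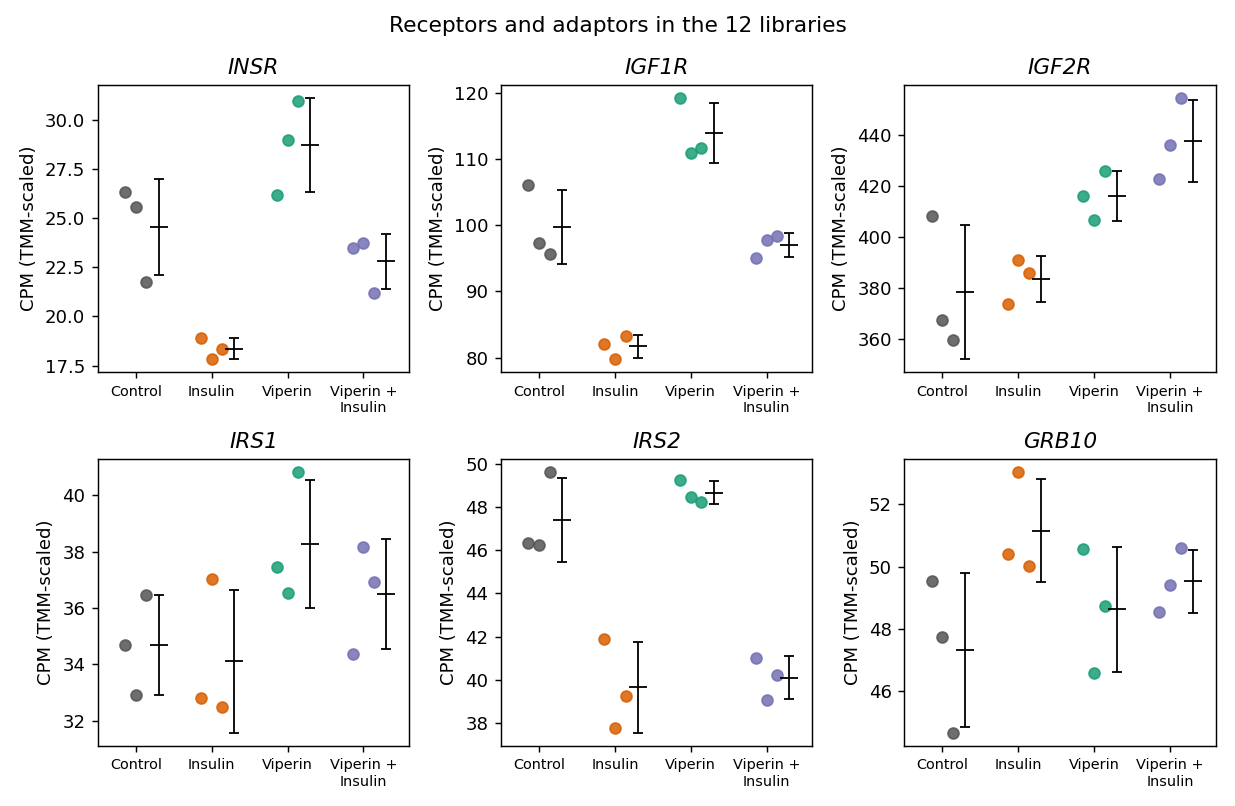
Level of each of the 6 genes in each library, in CPM scaled by TMM, by group, on axes that do not start at 0. Points are libraries, and the line and bar give the mean and SD of 3. Both insulin groups lie below their vehicle groups for INSR, IGF1R and IRS2, and the insulin and vehicle groups overlap for IRS1.

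Insulin lowered these 3 genes in Viperin OE cells too. INSR fell by 20.5%, IGF1R fell by 14.8% and IRS2 fell by 17.5%, so 3 of 6 genes were lower and 0 higher, where 2.39% of all genes were lower, 2.17% higher and 4.56% were called in either direction (edgeR, adjusted p under 0.05). The same 3 genes passed 0.001, as did 1.11% of genes. Of 24 alternatives, 0.001 was passed in 14 for INSR, 22 for IGF1R and 23 for IRS2. They were also the genes whose Viperin OE + Insulin libraries did not overlap the Viperin OE libraries, which held for 21.1% of genes tested.

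INSR was at 26.2, 29.0 and 31.0 CPM in Viperin OE and at 23.5, 23.7 and 21.2 CPM in Viperin OE + Insulin cells. Viperin OE library 3 was the highest of all 12 libraries. With insulin the log2 fold change was -0.33 ± 0.07 (SE, edgeR adjusted p = 3.8e-04), and -0.28 (edgeR adjusted p = 0.0025) without that library and Control library 1. IGF1R went from 119, 111 and 112 CPM to 95.03, 97.8 and 98.4 CPM, with a wide gap between the groups. Its log2 fold change was -0.23 ± 0.04 (SE, edgeR adjusted p = 5.2e-05).

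IRS2 went from 49.3, 48.5 and 48.2 CPM in Viperin OE cells to 41.0, 39.1 and 40.2 CPM with insulin. These were tight groups, and each insulin library was lower. This log2 fold change was -0.28 ± 0.05 (SE, edgeR adjusted p = 5.4e-05). IRS1 was at 37.5, 36.5 and 40.8 CPM against 34.4, 38.2 and 36.9 CPM, and these ranges overlapped. For IRS1 the log2 fold change was -0.07 (95% interval -0.18 to 0.04, edgeR adjusted p = 0.650).

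IGF2R was at 416, 407 and 426 CPM in Viperin OE and at 423, 436 and 455 CPM in Viperin OE + Insulin cells, with overlap. Here the log2 fold change was 0.07 (95% interval -0.0021 to 0.15, edgeR adjusted p = 0.342). GRB10 was at 50.6, 46.6 and 48.7 CPM against 48.6, 49.4 and 50.6 CPM, so its groups overlapped here, unlike with empty vector. For GRB10 the log2 fold change was 0.03 (95% interval -0.07 to 0.12, edgeR adjusted p = 0.881).

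The response to insulin was then compared between plasmids for each gene. The difference of the log2 fold changes, Viperin OE minus empty vector, was 0.08 for INSR (95% interval -0.11 to 0.27), 0.05 for IGF1R (-0.06 to 0.17) and 0.05 for IGF2R (-0.05 to 0.16). For the adaptors it was -0.04 for IRS1 (-0.20 to 0.12), -0.02 for IRS2 (-0.16 to 0.12) and -0.09 for GRB10 (-0.23 to 0.05). None of the 6 passed the test, with edgeR adjusted p between 0.956 and 0.996, and 0% of genes did. Over all genes, edgeR called 0 with 1297 at an unadjusted p under 0.05, DESeq2 called 0 with 865 and limma-voom called 0 with 1343. The intervals still allow a response of INSR that is weaker by 0.27 or stronger by 0.11 on the log2 scale in Viperin OE cells.

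Averaged over both plasmids, the insulin response was -0.37 ± 0.05 for INSR (edgeR adjusted p = 1.1e-08), -0.26 ± 0.03 for IGF1R (edgeR adjusted p = 1.6e-10) and -0.27 ± 0.04 for IRS2 (edgeR adjusted p = 1.5e-08), as log2 fold changes with SE. These are 3 of 6 genes lower, where 5.97% of all genes were lower, 5.76% higher and 11.7% called in either direction. The 3 also passed 0.001, as did 3.92% of genes. IGF2R was at 0.05 ± 0.03 (edgeR adjusted p = 0.313), IRS1 at -0.05 ± 0.04 (edgeR adjusted p = 0.569) and GRB10 at 0.07 ± 0.03 (edgeR adjusted p = 0.201). Without Control library 1, IGF2R passed at a log2 fold change of 0.08 (edgeR adjusted p = 0.0292), so that library decides its call. At 0.05, the calls on INSR, IGF1R and IRS2 held under each alternative run, in each plasmid and in the average. Their averaged log2 fold changes were -0.32, -0.24 and -0.28 without Control library 1 and Viperin OE library 3.

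**Figure D3:**
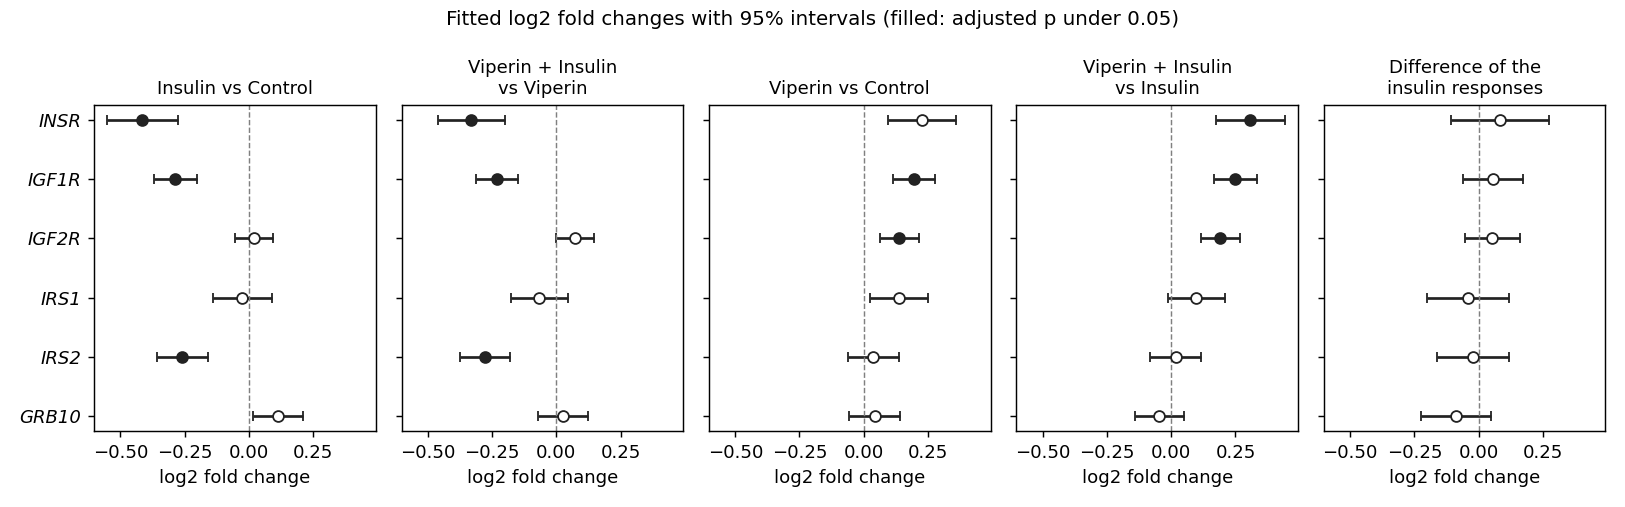
Log2 fold change of each of the 6 genes with its 95% interval in the 2 insulin comparisons, the 2 plasmid comparisons and the difference of the insulin responses. Filled points passed an adjusted p of 0.05 in edgeR. INSR, IGF1R and IRS2 lie below 0 in both insulin comparisons, and all 6 intervals of the difference include 0.

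With Viperin OE, transcripts of IGF1R and IGF2R were higher in vehicle and in insulin and those of INSR in insulin, while no adaptor passed the test. In vehicle, IGF1R and IGF2R were 14.4% and 10.0% higher in Viperin OE than in Control cells, so 2 of 6 genes were higher and 0 lower, where 1.25% of all genes were higher, 1.04% lower and 2.29% were called in either direction (edgeR, adjusted p under 0.05). None of the 6 passed 0.001, which 0.304% of genes passed. In insulin, INSR, IGF1R and IGF2R were 23.8%, 18.9% and 14.1% higher with the Viperin plasmid, so 3 of 6 genes were higher and 0 lower, where 2.09% of genes were higher, 0.99% lower and 3.08% were called. IGF1R and IGF2R then passed 0.001, as did 0.473% of genes. Of 24 alternatives, 0.001 was passed in 21 for IGF1R but in only 11 for IGF2R. The 2 comparisons contrast separate libraries, but both come from the same fit over all 12 libraries and share its estimate of the spread. The summed stromal markers also moved with the plasmid, from 5443 to 5977 CPM in the empty vector libraries to 6198 to 6488 CPM in the Viperin libraries, as did the mitochondrial share, and their part in these differences was not tested.

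For INSR in vehicle, 21.7 to 26.4 CPM in Control stood against 26.2 to 31.0 CPM in Viperin OE cells, which overlapped at Control library 1 and Viperin OE library 1. The log2 fold change of 0.23 ± 0.07 (SE) lay at the threshold and did not pass (edgeR adjusted p = 0.0507). It passed in 5 of 24 alternatives, among them the fits without Control library 1 (edgeR adjusted p = 0.0076), Viperin OE library 1 (0.0158) or Viperin OE + Insulin library 3 (0.0467). With 1 library left out, its log2 fold change ran from 0.14 to 0.29, and its edgeR adjusted p rose to at most 0.429. In insulin, the 17.9 to 18.9 CPM of the Insulin libraries lay below the 21.2 to 23.7 CPM of Viperin OE + Insulin cells. That log2 fold change was 0.31 ± 0.07 (SE, edgeR adjusted p = 0.0030).

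IGF1R was at 95.7 to 106 CPM in Control and 111 to 119 CPM in Viperin OE cells, without overlap. In vehicle the log2 fold change was 0.19 ± 0.04 (SE, edgeR adjusted p = 0.0027), and without Viperin OE library 1 it was 0.16 and just missed the threshold (edgeR adjusted p = 0.0503). In insulin, 79.8 to 83.3 CPM stood against 95.03 to 98.4 CPM. This log2 fold change of 0.25 ± 0.04 (SE, edgeR adjusted p = 4.6e-05) ranked 34 among all genes. IGF1R was the only one of the 6 past the threshold in all 4 insulin and plasmid comparisons. These comparisons share their groups, so they are not 4 independent results.

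IGF2R was at 359 to 408 CPM in Control and 407 to 426 CPM in Viperin OE cells, and overlapped through Control library 1. Its log2 fold change of 0.14 ± 0.04 (SE, edgeR adjusted p = 0.0326) is the least secure call, since it was lost in 8 of 24 alternatives. Among these were the fits without Control library 2 (edgeR adjusted p = 0.163), Control library 3 (0.177), Insulin library 3 (0.0531), Viperin OE library 1 (0.0764) or Viperin OE library 3 (0.142). In insulin, 374 to 391 CPM stood against 423 to 455 CPM with no overlap. There the log2 fold change was 0.19 ± 0.04 (SE, edgeR adjusted p = 7.9e-04). At 0.05 the call held in all 24 alternatives, as did those of INSR and IGF1R. Without Control library 1 and Viperin OE library 3, the log2 fold changes in vehicle were 0.26 for IGF1R (edgeR adjusted p = 4.0e-05), 0.18 for IGF2R (edgeR adjusted p = 0.0011) and 0.22 for INSR (edgeR adjusted p = 0.0684).

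No adaptor passed the test between plasmids. IRS1 had a log2 fold change of 0.14 (95% interval 0.02 to 0.25, edgeR adjusted p = 0.227) in vehicle, a value like that of IGF2R with a larger SE, and of 0.10 (-0.01 to 0.21, edgeR adjusted p = 0.453) in insulin. Its Control and Viperin OE libraries did not overlap, but by little, with 3.64 CPM per kilobase in the highest Control and 3.65 in the lowest Viperin OE library. IRS2 was at 0.04 (-0.06 to 0.14, edgeR adjusted p = 0.833) in vehicle and 0.02 (-0.08 to 0.12, edgeR adjusted p = 0.936) in insulin. GRB10 was at 0.04 (-0.06 to 0.14, edgeR adjusted p = 0.794) and -0.05 (-0.14 to 0.05, edgeR adjusted p = 0.760). Thus IRS2 responded to insulin without a call for the plasmid, IGF2R was called for the plasmid and not for insulin, and INSR and IGF1R were called for insulin in both plasmids and for the plasmid in insulin.

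In all, IGF1R and IRS1 were the genes without overlap between Control and Viperin OE libraries, where 15.8% of genes had none. INSR, IGF1R and IGF2R had none between Insulin and Viperin OE + Insulin libraries, as did 21.7% of genes. With both treatments, INSR was at 22.8 ± 1.39 CPM and IGF1R at 97.1 ± 1.82 CPM, beside 24.6 ± 2.47 and 99.7 ± 5.59 CPM in Control cells (SD, n = 3), and these ranges overlapped. IRS2 stayed apart, with 40.1 ± 0.99 CPM under both treatments beside 47.4 ± 1.93 CPM in Control cells, and IGF2R was higher under both, with 438 ± 15.98 beside 378 ± 26.2 CPM. These last values are set side by side and were not tested.

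The balance within the receptor pair and within the adaptor pair was taken as a ratio of counts per kilobase in each library, which does not depend on library size. The ratio of INSR to IGF1R was 0.317 ± 0.023 in Control, 0.289 ± 0.007 in Insulin, 0.325 ± 0.038 in Viperin OE and 0.302 ± 0.022 in Viperin OE + Insulin cells (SD, n = 3). Both receptors fell with insulin, and the ratio did not pass the test between 6 insulin and 6 vehicle libraries (log2 difference -0.11, exact two-sided permutation p = 0.0931, adjusted over 4 tests 0.186). Between plasmids the log2 difference was 0.05 (exact permutation p = 0.500, adjusted 0.500).

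The ratio of IRS2 to IRS1 was 1.64, 1.72 and 1.67 in Control, 1.57, 1.25 and 1.49 in Insulin, 1.62, 1.63 and 1.45 in Viperin OE, and 1.47, 1.26 and 1.34 in Viperin OE + Insulin libraries. IRS2 was thus the more abundant adaptor transcript per length in every library, and the lower ratios were those of the insulin libraries, although Viperin OE library 3 lay among them. The mean was 1.39 ± 0.13 with insulin and 1.62 ± 0.09 without (SD, n = 6), a log2 difference of -0.22 (exact two-sided permutation p = 0.00866, adjusted over 4 tests 0.0346). It was -0.23 within the empty vector and -0.21 within Viperin OE. The adjusted exact permutation p rose above 0.05 when Control library 1, 2 or 3, Insulin library 2, Viperin OE library 1 or 2, or Viperin OE + Insulin library 2 or 3 was left out, to at most 0.0779, with log2 differences of -0.22 to -0.19. Between plasmids the log2 difference was -0.09 (exact permutation p = 0.325, adjusted 0.433).

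**Figure D4:**
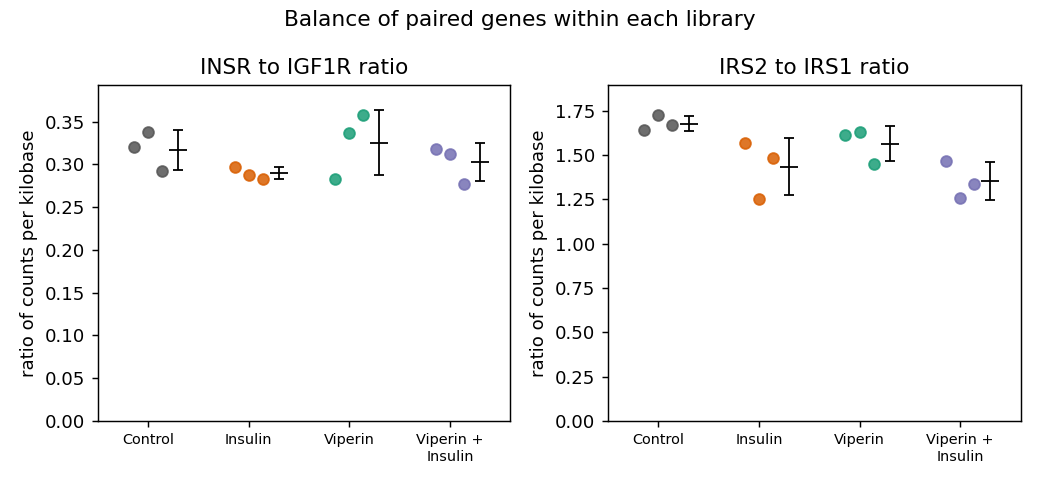
Ratio of counts per kilobase in each library for INSR to IGF1R (left) and IRS2 to IRS1 (right), by group, with axes that start at 0. Lines and bars give the mean and SD of 3 libraries. The IRS2 to IRS1 ratio lies between 1.25 and 1.57 with insulin and between 1.45 and 1.72 without.

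The other genes of the pathway were taken from lists written from general knowledge, but chosen with earlier results of these data known. For the insulin response averaged over plasmids, their counts stand beside 5.76% of all genes higher and 5.97% lower. Of 7 ligands and other receptors, 3 had enough counts to test, and 1 was higher, 1 lower and 1 did not pass. The ligand genes gave almost no reads: INS had 0 counts in each library, which allows at most 0.0640 to 0.115 CPM from 3 counts of the library total, and IGF1 had 0 or 1 count, while IGF2 and the insulin receptor-related receptor gene INSRR had 0 to 3. Averaged over plasmids, insulin raised M6PR, the smaller mannose 6-phosphate receptor, with a log2 fold change of 0.09 ± 0.03 (SE, edgeR adjusted p = 0.0166), which was lost without Insulin library 2 (0.0708) or Viperin OE + Insulin library 2 (0.0558). LRP1, an endocytic receptor, was at -0.26 ± 0.07 (SE, edgeR adjusted p = 0.0470). This call was lost in 12 of 23 alternatives, among them the fits that left out Control library 3, or any 1 library of the Insulin, Viperin OE or Viperin OE + Insulin groups, with adjusted p up to 0.111. Without Control library 1 and Viperin OE library 3 together it was -0.17 (edgeR adjusted p = 4.2e-07). The median log2 fold change of the 3 tested genes was -0.02, beside -0.0015 over all genes.

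Of 22 other adaptors, averaged over plasmids, 2 were higher, 3 lower and 17 did not pass with insulin, where 5.76% of all genes were higher and 5.97% lower. The median log2 fold change was -0.03. SOS2, an exchange factor that activates RAS, was lower, at -0.16 ± 0.03 (SE, edgeR adjusted p = 2.5e-04), and GRB7, which belongs to the same family as GRB10, was at -0.25 ± 0.06 (SE, edgeR adjusted p = 0.0019). GIGYF1, named for its binding to GRB10, was at -0.14 ± 0.04 (SE, edgeR adjusted p = 0.0036). The phosphatase PTPN11 was higher, at 0.09 ± 0.03 (SE, edgeR adjusted p = 0.0143), and so was CRKL, chosen after its value was seen, at 0.09 ± 0.03 (SE, edgeR adjusted p = 0.0245). PTPN11 missed the threshold without Viperin OE library 3 (edgeR adjusted p = 0.0576), without Viperin OE + Insulin library 3 (0.0702), and without Control library 1 and Viperin OE library 3 together (0.0912).

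Of 16 inhibitors that act at the receptors or at IRS proteins, 3 were higher, 2 lower and 11 did not pass, beside the same shares of all genes. Their median was 0.0014. The ubiquitin ligases of the CBL family moved apart, with CBLB at -0.16 ± 0.04 (SE, edgeR adjusted p = 5.2e-04) and CBL at 0.12 ± 0.03 (SE, edgeR adjusted p = 0.0018). CUL7, part of a ligase that degrades IRS1, was at -0.12 ± 0.03 (SE, edgeR adjusted p = 0.0050). PTPN1, a phosphatase of the insulin receptor, was at 0.10 ± 0.03 (SE, edgeR adjusted p = 0.0065). SOCS2, chosen after its value was seen, was at 0.24 ± 0.07 (SE, edgeR adjusted p = 0.0069).

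PIK3R3 was the only one of 6 class IA PI3K subunits that passed with insulin, averaged over plasmids. It was higher, where 5.76% of all genes were higher, 5.97% lower and 11.7% called in either direction. This regulatory subunit docks on phosphorylated IRS proteins. It was at 52.1 ± 2.29 CPM in Control and 64.1 ± 4.37 CPM in Insulin cells, and at 51.7 ± 0.91 and 64.0 ± 1.72 CPM with Viperin OE (SD, n = 3). Its averaged log2 fold change was 0.30 ± 0.03 (SE, edgeR adjusted p = 5.5e-11), while the median of the 6 subunits was -0.03.

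Among 16 FOXO factors and known FOXO targets, 8 were lower with insulin, 1 was higher and 7 did not pass, where 5.97% of all genes were lower and 5.76% higher. The median log2 fold change of the list was -0.19, beside -0.0015 over all genes. CCNG2, a cyclin-related protein of arrested cells, went from 104.6 ± 1.96 to 79.1 ± 2.04 CPM with empty vector and from 109 ± 4.94 to 85.2 ± 3.94 CPM with Viperin OE (SD, n = 3, with an averaged log2 fold change of -0.38 ± 0.03, SE, edgeR adjusted p = 5.8e-17). PIK3IP1, an inhibitor of PI3K, went from 10.8 ± 0.96 to 6.41 ± 0.58 and from 12.3 ± 1.24 to 7.80 ± 1.06 CPM (log2 fold change -0.70 ± 0.07, SE, edgeR adjusted p = 3.1e-12). FOXO4 itself was at -0.25 ± 0.04 (SE, edgeR adjusted p = 6.3e-06) and the coactivator PNRC1 at -0.18 ± 0.03 (SE, edgeR adjusted p = 6.6e-06). CITED2, ERBB3, TXNIP and CDKN1B were also lower, and GADD45A was higher at 0.17 ± 0.05 (SE, edgeR adjusted p = 0.0096). By plasmid, 6 of the 16 were lower with empty vector, where 2.96% of all genes were lower, and 6 were lower and 1 higher with Viperin OE, where 2.39% were lower and 2.17% higher.

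**Figure D5:**
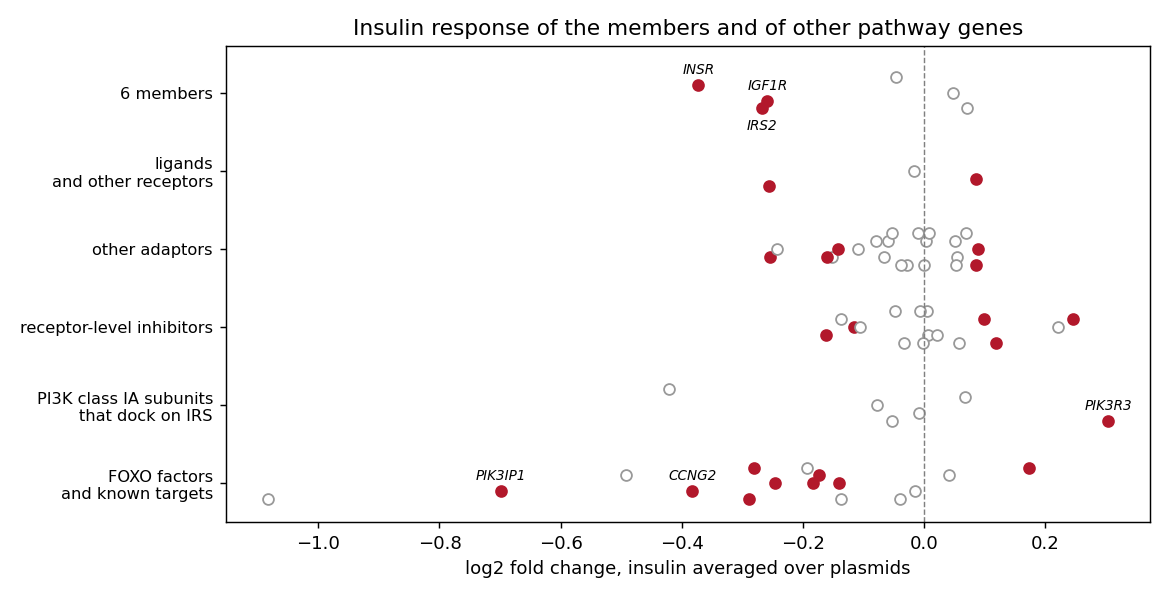
Log2 fold change with insulin, averaged over plasmids, of the 6 genes and of the tested genes of the 5 pathway lists. Each point is a gene, filled where the adjusted p in edgeR was under 0.05, and the dashed line marks no change. The FOXO list has a median of -0.19, and the other 4 lists have medians between -0.034 and 0.0014.

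Of the 63 tested genes of the 5 lists, 2 were higher and 0 lower with Viperin OE in vehicle, and 3 were higher and 0 lower in insulin. Of all genes, 1.25% were higher and 1.04% lower in vehicle, and 2.09% higher and 0.99% lower in insulin. In either direction these comparisons called 2.29% and 3.08% of all genes. The called list genes are named here after their values were seen. In vehicle, GIGYF1 was higher in Viperin OE than in Control cells by 0.20 ± 0.05 (log2, SE, edgeR adjusted p = 0.0220) and the PI3K catalytic subunit PIK3CD by 0.17 ± 0.05 (SE, edgeR adjusted p = 0.0404). In insulin, GIGYF1 was higher with the Viperin plasmid by 0.27 ± 0.05 (SE, edgeR adjusted p = 4.2e-04), the sorting receptor SORT1 by 0.15 ± 0.04 (SE, edgeR adjusted p = 0.0046) and the kinase MAPK8 by 0.19 ± 0.05 (SE, edgeR adjusted p = 0.0251).

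The genes whose levels ran most alike over the 12 libraries were sought among 13129 genes with a mean of at least 1 CPM, by Pearson's r of log2 CPM. The 12 libraries fall into 4 groups, so r reflects both the group means and the spread within groups. These parts were not separated, and r is a description. For INSR these were NPC2 (r = 0.98), CD9 (0.96) and MEGF6 (0.95), and for IGF1R CYBRD1, KNTC1 and TIMP2 (each 0.97). IGF2R ran with TMEM165, TGOLN2 and P3H2 (each 0.95). Of the adaptors, IRS2 ran with SLC30A2, MXI1 and CASTOR2 (each 0.97), GRB10 with NIPA1 (0.94), SIPA1L2 (0.91) and CNIH3 (0.89), and IRS1 with POU6F1 (0.88), P4HB (0.88) and CRISPLD1 (0.87). Among the 6 genes themselves, r was 0.91 between INSR and IGF1R, 0.73 between INSR and IRS2, 0.75 between IGF1R and IRS2, and 0.23 between IRS1 and IRS2. GRB10 ran opposite to IRS2, with r of -0.65.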

How the data were processed

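mRNA was sequenced from 12 libraries of 12Z cells, 3 independent experiments per group. The authors used cutadapt, Trim Galore and FastQC on the reads, then STAR for alignment to hg38 and for counting. Tool versions were not given in the sources used here, and the human annotation release is not certain. The deposited values are raw read-pair counts per gene, not normalized. Reverse-strand counts were used. Multimapping and unassigned reads, 20.6% to 24.9% of all, stayed out of the library sizes. GENCODE release 44 named 60357 of 60617 genes.

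The 23041 genes that averaged 1 count or more were kept. TMM factors were applied, and expression was fitted as 4 group means over all 12 libraries with edgeR 4.0.16 (robust quasi-likelihood, R 4.3.3), with Benjamini-Hochberg adjustment over all genes. CPM used a TMM-scaled library size. Ratios were tested by exact two-sided permutation of 6 against 6 libraries (smallest possible p 0.00216). Standard errors came from the log2 fold change and its F statistic. The scripts were tested on simulated data. Alternatives were DESeq2 1.42.0, limma-voom (limma 3.58.1), RLE size factors, other count filters, unstranded counts, a replicate block, a fit without the robust option, only the groups compared, and leaving out each library. Named genes were all 6 genes, up to 4 called genes of each list with the smallest p for the averaged insulin response, and the 3 most correlated genes for each of the 6. Members and lists were chosen with earlier results of these data known.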

Additional observations from a re-analysis of the deposited data

How the results depend on the processing

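For INSR, IGF1R and IRS2, the fall with insulin passed the threshold under each alternative run, in either plasmid and in the average. Counts of called genes over the whole table moved more. Between Viperin OE and Control cells 528 genes were called, but 235 with only the groups compared, 929 without Control library 1 and Viperin OE library 3 (chosen after seeing the data), and 308 to 1102 when 1 library was left out. Between Viperin OE + Insulin and Insulin cells, 710 became 1793, 1192 and 278 to 1039 under the same changes. With 1 library left out, the count ran from 627 to 1360 for Insulin against Control (1265 in all) and from 615 to 1393 for Viperin OE + Insulin against Viperin OE (1050). The difference of the responses had 0 genes called, but 2 without the robust option, 37 with no filter, 7 with unstranded counts, 34 without the 2 libraries and 0 to 24 with 1 left out. None was among the 6 genes. The causes of these shifts were not tested.

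Replicate numbers did not pair the libraries: the deviations of same-numbered libraries correlated at -0.08 to 0.07 over 18 pairs, and 2 of 12 libraries correlated best with their own number. A replicate block gave 17 called genes for the difference and a log2 difference of -0.22 for the IRS2 to IRS1 ratio (exact permutation p = 0.03125, the smallest that 6 pairs allow, adjusted 0.125). It changed no call on the 6 genes. That ratio was -0.26 without the 2 libraries (adjusted exact permutation p = 0.0571) and -0.26 to -0.19 with 1 left out. Some values near 0 that were not called changed sign. With 1 library left out, Insulin against Control ran from -0.089 to 0.014 for IRS1 and from -0.015 to 0.078 for IGF2R, GRB10 in Viperin OE ran from -0.0048 to 0.052, and IRS2 between plasmids in insulin ran from -0.017 to 0.059. The difference of responses ran from -0.081 to 0.022 for IRS1, -0.0046 to 0.089 for IGF2R and -0.056 to 0.022 for IRS2, and, without the 2 libraries, was -0.013 for IGF1R.

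INSR between Viperin OE and Control cells passed with no filter (edgeR adjusted p = 0.0238) and with unstranded counts (0.0441). IGF2R there missed the threshold in DESeq2 without its independent filtering of genes by mean count (adjusted p = 0.0666), but not with that filtering. It also missed the threshold in edgeR without the robust option (adjusted p = 0.0576) and with only the groups compared (0.131). By canonical length IGF2R was at 28.7 CPM per kilobase, GRB10 at 8.99 and IGF1R at 8.02. Unstranded counts, scaled to their own library totals, gave 5.29 for GRB10. At most 4 read pairs per library lay on its opposite strand, so its own counts hardly changed. INSR, with 646 to 1054 counts per library, had the widest intervals.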
